A study of Mus musculus with 15 samples.

Results

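Nkd1, Axin2, Rnf43, Znrf3, Lef1, Tcf7 and Ctnnb1 are genes by which a cell tempers or carries out canonical Wnt signalling. They were taken by symbol from the gene count table, 7 genes of 34259: 4 feedback inhibitors (Nkd1, Axin2, Rnf43, Znrf3) and 3 nuclear effectors (Lef1, Tcf7, Ctnnb1). Of the 7, 6 passed the filter on low counts and were tested, and Lef1 did not. RNA from GL261 cells, an established glioma line of the mouse with the genotype label WT, gave 15 libraries in 5 groups of 3, all from day 6 and with a shared batch label. In 3 hydrogel groups (D-gel@GSNP, then L-gel@GSNP, then D-gel@NP), cells sorted as Hoechst-CD133+ were left on ice in a freeze-dried hydrogel (20 min) before growth with a cytokine cocktail. The PBS group had the same sorted cells with buffer and the cocktail, with no ice step named. The non-SP group held GL261 cells outside the side population (the cells that pump out the dye Hoechst), with no treatment. Every group was topped up with blank medium on days 2 and 4. The labels call the hydrogels chiral and mark them D or L, and give GSNP and NP as code names without saying what they are. D-gel@GSNP and L-gel@GSNP thus differ in the D or L mark, and D-gel@GSNP and D-gel@NP in the code of the load. Nothing in the labels says whether the 3 libraries of a group came from separate cultures, so p-values measure the spread between these libraries, which may be technical.

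As background, Wnt ligands bind Frizzled receptors and the co-receptors Lrp5 and Lrp6. Without a ligand, a destruction complex built on the scaffold Axin marks beta-catenin, the product of Ctnnb1, for degradation. With a ligand, beta-catenin builds up, enters the nucleus and acts with DNA-binding factors of the TCF/LEF family, which include the products of Tcf7 and Lef1. Several targets of the pathway inhibit it in turn. Axin2 is a second Axin scaffold, Nkd1 binds Dishevelled, and Rnf43 and Znrf3 are membrane ubiquitin ligases that clear Frizzled from the cell surface. The level of such feedback genes is often used as a readout of Wnt activity in glioma and other tumours, whereas Ctnnb1 activity is set mainly by the stability of its protein.

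Total read counts ran from 16.6 M in D-gel@NP 1 to 98.1 M in L-gel@GSNP 3. Levels are given as CPM, read counts relative to the library total scaled with TMM factors, and, where genes are compared with each other, as the deposited FPKM, which also divides by gene length. D-gel@GSNP and non-SP libraries lay near each other: their distances (Euclidean, over log2 CPM of 17497 tested genes) were 67.6 to 73.9, against 65.1 to 69 among the D-gel@GSNP libraries and 113.3 to 123.7 between D-gel@GSNP and PBS. Treatment, shared material and a wrong label cannot be told apart from the files, and every value of D-gel@GSNP below carries this limit. Of 10 glioma and glial markers 9 were analysed and 5 tested. In D-gel@GSNP 1 was called higher and 2 lower than in PBS, where 27.4% of all genes were called higher and 27.5% lower. Vim and Cd44 were high, at 945 ± 30.6 and 539 ± 6.97 CPM in D-gel@GSNP and 1118 ± 42.9 and 1156 ± 48.0 CPM in PBS (SD, n = 3). Nes had group means of 1.24 to 3.70 CPM, and S100b, Fabp7, Slc1a3 and Olig2 had at most 1.08, 0.124, 0.0486 and 0.0310 CPM. Gfap and Prom1, the gene of CD133, stayed under 0.3 CPM in every group mean. Summed markers of macrophages and microglia, of which 11 of 14 were analysed here, gave 12 to 13.1 CPM in D-gel@GSNP, 37.9 to 45.0 CPM in L-gel@GSNP, 32.7 to 40.6 CPM in D-gel@NP, 66.5 to 74.1 CPM in PBS and 11.1 to 11.5 CPM in non-SP, most of it from Csf1r and Cd68. Of these markers 7 were tested, with 0 called higher and 3 lower in D-gel@GSNP than in PBS, beside the same shares of all genes. Tyrobp, which marks all such cells, had a group mean of at most 0.0397 CPM and was at 0 in PBS. Itgam, like Csf1r and Cd68, was lowest in D-gel@GSNP and non-SP, at 0.137 and 0.0983 CPM. It had 3.92 CPM in L-gel@GSNP, 2.48 CPM in D-gel@NP and 1.79 CPM in PBS. Of 7 fibroblast markers 6 were analysed and 4 tested, with 2 called higher and 2 lower in D-gel@GSNP than in PBS. Their sum, nearly all Dcn, was 690 to 714 CPM in D-gel@GSNP, 1316 to 1475 CPM in L-gel@GSNP, 1457 to 1514 CPM in D-gel@NP, 1291 to 1366 CPM in PBS and 694 to 722 CPM in non-SP. The share of counts from mitochondrial genes was 2.82% to 3.37% in D-gel@GSNP, 4.28% to 4.63% in L-gel@GSNP, 4.47% to 4.84% in D-gel@NP, 5.69% to 6.35% in PBS and 2.82% to 2.92% in non-SP. Col1a1 ran the other way, with 14.4 ± 0.615 CPM in D-gel@GSNP, 3.06 ± 1.81 CPM in L-gel@GSNP, 1.44 ± 0.149 CPM in D-gel@NP, 1.58 ± 1.45 CPM in PBS and 13.4 ± 1.31 CPM in non-SP (SD, n = 3), and Col3a1 was highest in L-gel@GSNP, at 6.88 ± 0.197 CPM. The macrophage sum, Dcn and the mitochondrial share were thus low where Nkd1 and Tcf7 below were high, and Col1a1 was high there. Their part in the results was not tested. T cells express Tcf7 and Lef1. Summed over 12 of 13 T cell markers, the level was 2.37 to 3.35 CPM in D-gel@GSNP, 2.86 to 3.88 CPM in L-gel@GSNP, 2.56 to 3.75 CPM in D-gel@NP, 2.94 to 4.14 CPM in PBS and 2.25 to 3.33 CPM in non-SP. Most of it was Trac, with means of 2.82 ± 0.519 CPM in D-gel@GSNP, 1.63 ± 0.329 CPM in L-gel@GSNP, 1.58 ± 0.599 CPM in D-gel@NP, 2.08 ± 0.338 CPM in PBS and 2.78 ± 0.463 CPM in non-SP (SD, n = 3), highest where Tcf7 was. Ptprc and Cd2 ran the other way, at 0.0431 and 0.0125 CPM in D-gel@GSNP and 0.456 and 0.519 CPM in PBS, and Cd3e, Cd3d and Cd3g had group means of at most 0.0339 CPM, with 0 in D-gel@GSNP and non-SP. The part of T cell RNA in the results was not tested. In bulk RNA, fewer cells of a type and less RNA per cell cannot be told apart.

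Nkd1 separated the groups most widely among the feedback inhibitors. It had 385, 376 and 352 CPM in D-gel@GSNP, 156, 168 and 170 CPM in L-gel@GSNP, 154, 159 and 154 CPM in D-gel@NP, 118, 141 and 149 CPM in PBS and 332, 314 and 332 CPM in non-SP. All D-gel@GSNP and non-SP libraries lay above 300 CPM, and all the others lay under 200 CPM. The group means were 371 ± 17.0 CPM in D-gel@GSNP, 165 ± 7.76 CPM in L-gel@GSNP, 156 ± 2.84 CPM in D-gel@NP, 136 ± 15.7 CPM in PBS and 326 ± 10.4 CPM in non-SP (SD, n = 3), so that the highest was 2.73 times the lowest. In that order of levels, D-gel@GSNP and non-SP were neighbours that did not differ past the threshold (adjusted p = 0.300 in edgeR's quasi-likelihood test, Benjamini-Hochberg adjusted over all 17497 genes and called under 0.05, as for every adjusted p below). L-gel@GSNP and D-gel@NP were also neighbours that did not pass (adjusted p = 0.422). Their libraries overlapped, while those of D-gel@GSNP and non-SP did not. Of the other neighbours, non-SP was called above L-gel@GSNP (adjusted p = 9.49e-12) and D-gel@NP above PBS (adjusted p = 0.0242). The latter call was lost in some alternative fits given below.

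Axin2, the feedback gene with the closest tie to the destruction complex, spanned a much narrower range. It had 398, 409 and 405 CPM in D-gel@GSNP, 355, 386 and 415 CPM in L-gel@GSNP, 342, 363 and 346 CPM in D-gel@NP, 296, 335 and 338 CPM in PBS and 408, 387 and 397 CPM in non-SP. The D-gel@GSNP libraries overlapped those of L-gel@GSNP and non-SP and lay above all of D-gel@NP and PBS. The means were 404 ± 5.77 CPM in D-gel@GSNP, 385 ± 30.3 CPM in L-gel@GSNP, 350 ± 11 CPM in D-gel@NP, 323 ± 23.4 CPM in PBS and 397 ± 10.2 CPM in non-SP (SD, n = 3), and no neighbours in the order of levels differed past the threshold (adjusted p from 0.0912 to 0.936).

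The start regions of Nkd1 and Axin2 are shown because these feedback genes, named for the same pathway, differed in how far they moved. Both are RefSeq promoters on GRCm38.p6, 300 bases from 250 before to 50 after the annotated start, read 5′ to 3′ on the gene's strand. Capitals mark CG pairs.
Nkd1, chr8:88527383-88527682, plus strand: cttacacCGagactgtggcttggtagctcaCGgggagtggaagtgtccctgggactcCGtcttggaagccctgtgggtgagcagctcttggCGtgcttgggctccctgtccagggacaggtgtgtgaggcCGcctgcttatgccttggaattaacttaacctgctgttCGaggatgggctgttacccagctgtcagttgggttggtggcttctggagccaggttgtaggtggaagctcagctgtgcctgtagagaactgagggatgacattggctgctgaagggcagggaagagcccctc
Axin2, chr11:108920099-108920398, plus strand: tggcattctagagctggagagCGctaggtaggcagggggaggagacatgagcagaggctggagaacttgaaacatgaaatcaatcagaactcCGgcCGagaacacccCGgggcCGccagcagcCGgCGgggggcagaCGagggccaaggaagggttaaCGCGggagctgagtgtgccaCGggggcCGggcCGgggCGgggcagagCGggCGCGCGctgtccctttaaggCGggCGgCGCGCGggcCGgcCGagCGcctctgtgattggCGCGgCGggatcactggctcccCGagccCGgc
The window of Nkd1 held 6 CG pairs and that of Axin2 held 31, where the median over 32851 mouse promoters was 7, with quartiles of 3 and 20. The TCF/LEF motif was searched as CTTTGAT and CTTTGAA on both strands, motifs that share their first 6 letters. Neither was in either window, nor in any of the 12 promoters that the table holds for 6 of the 7 genes, while 8.65% of all promoters held at least 1 of them. No match says only that these letters are not in these windows. Znrf3 was the gene with no entry in that table. The windows of Tcf7, a gene whose levels moved like those of Nkd1, held 45 and 17 CG pairs for its 2 annotated starts, so that the CG content of Nkd1 and Tcf7 was not alike.

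Rnf43 and Znrf3 encode related ligases but differed in their spread. Rnf43 had 205, 202 and 203 CPM in D-gel@GSNP, 205, 223 and 216 CPM in L-gel@GSNP, 193, 196 and 191 CPM in D-gel@NP, 158, 182 and 181 CPM in PBS and 198, 199 and 200 CPM in non-SP. PBS was the lowest group, with no library above 182 CPM, and the other 4 groups lay within 191 to 223 CPM. Its mean was 203 ± 1.75 CPM in D-gel@GSNP and 215 ± 8.99 CPM in L-gel@GSNP (SD, n = 3), which made Rnf43 the feedback gene with its highest mean in L-gel@GSNP. Znrf3 had 104, 96.9 and 102 CPM in D-gel@GSNP, 78.7, 89.4 and 86.2 CPM in L-gel@GSNP, 68.6, 81.9 and 76.0 CPM in D-gel@NP, 62.4, 73.3 and 73.2 CPM in PBS and 101, 91.5 and 102 CPM in non-SP. For Znrf3 the D-gel@GSNP libraries lay above all libraries of L-gel@GSNP, D-gel@NP and PBS and overlapped non-SP.

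Tcf7, a TCF/LEF factor that binds DNA for beta-catenin, was arranged like Nkd1. It had 86.8, 77.5 and 79.1 CPM in D-gel@GSNP, 32.0, 37.3 and 37.1 CPM in L-gel@GSNP, 32.2, 35.8 and 32.6 CPM in D-gel@NP, 28.0, 33.8 and 36.2 CPM in PBS and 71.6, 72.6 and 72.6 CPM in non-SP. The D-gel@GSNP and non-SP libraries lay far above the rest, and L-gel@GSNP, D-gel@NP and PBS overlapped each other. Lef1, a close relative, had almost no reads: 2 counts in L-gel@GSNP 1, 4 counts in PBS 2 and 0 counts in the other 13 libraries. Over the 3 libraries of a group, a count of 0 allows up to 0.0208 CPM in D-gel@GSNP, 0.0315 CPM in D-gel@NP and 0.0245 CPM in non-SP (3 counts of the group's total, counting error only). Lef1 was therefore not detectable in D-gel@GSNP, D-gel@NP and non-SP at this depth, and no fold between groups is given.

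Of the remaining factors of the family, Tcf7l2 was present and Tcf7l1 was nearly absent, with 21 counts over all 15 libraries. Per length, Tcf7 had 26.0 ± 1.36 FPKM in D-gel@GSNP, 12 ± 1.10 FPKM in L-gel@GSNP, 11.2 ± 0.746 FPKM in D-gel@NP, 10.9 ± 1.44 FPKM in PBS and 23.8 ± 0.137 FPKM in non-SP. Tcf7l2 had 5.34 ± 0.239 FPKM in D-gel@GSNP, 4.40 ± 0.318 FPKM in L-gel@GSNP, 4.31 ± 0.243 FPKM in D-gel@NP, 4.04 ± 0.22 FPKM in PBS and 5.24 ± 0.149 FPKM in non-SP (SD, n = 3). Tcf7 thus made up 81.6% to 84.2% of the summed FPKM of Tcf7, Tcf7l2, Tcf7l1 and Lef1 in the D-gel@GSNP libraries, 72.2% to 74.0% of it in L-gel@GSNP, 71.3% to 72.7% of it in D-gel@NP, 70.9% to 74.8% of it in PBS and 81.5% to 82.5% of it in non-SP. Tcf7l2 also rose in D-gel@GSNP relative to PBS (log2 difference 0.46 ± 0.064 SE, adjusted p = 2.43e-06), by less than Tcf7 did. The counts of Tcf7 per count of Tcf7l2 within a library were 1.81, 1.51 and 1.66 in D-gel@GSNP, compared with 0.832, 0.907 and 1.01 in PBS, with no overlap.

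**Figure D1:**
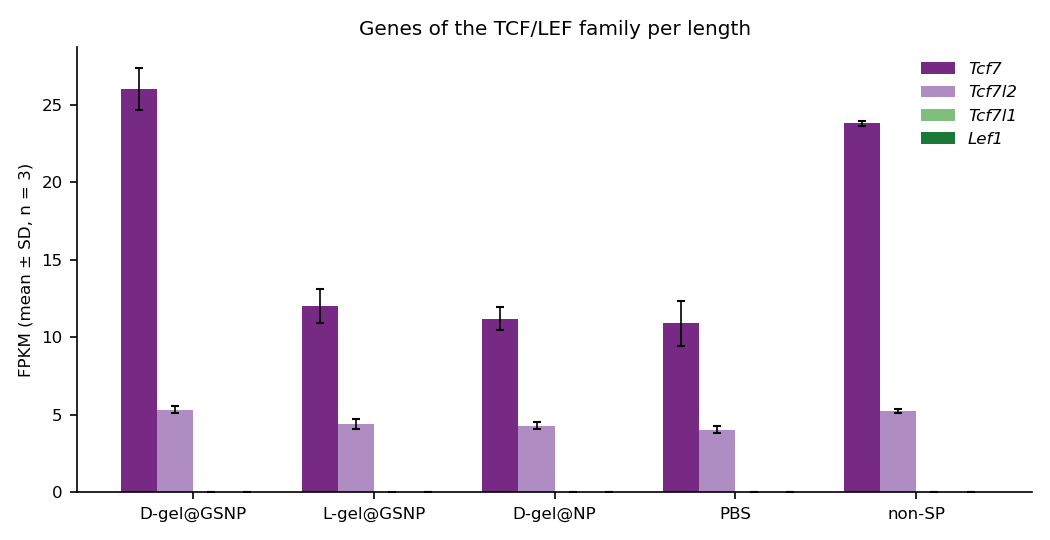
Mean FPKM (vertical axis) of Tcf7, Tcf7l2, Tcf7l1 and Lef1 in the 5 groups, with bars for the mean and error bars for the SD over 3 libraries. Tcf7 is highest in every group, at 26.0 FPKM in D-gel@GSNP and 10.9 FPKM in PBS, and Tcf7l1 and Lef1 lie on the axis.

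Ctnnb1 went the other way. It had 335, 345 and 350 CPM in D-gel@GSNP, 382, 385 and 378 CPM in L-gel@GSNP, 401, 399 and 404 CPM in D-gel@NP, 441, 430 and 405 CPM in PBS and 338, 339 and 331 CPM in non-SP. D-gel@GSNP and non-SP overlapped at the bottom, and the libraries of each other group did not overlap those of its neighbours. Among neighbours in this order, only L-gel@GSNP and D-gel@GSNP differed past the threshold (adjusted p = 0.00324). D-gel@NP against PBS (adjusted p = 0.141) and L-gel@GSNP against D-gel@NP (adjusted p = 0.257) did not pass. In these 2 comparisons 39.8% and 31.9% of all genes had no overlap. The distance between the extreme means was small, 425 ± 18.5 CPM in PBS and 336 ± 4.28 CPM in non-SP, with 343 ± 7.37 CPM in D-gel@GSNP (SD, n = 3). In a GENCODE annotation of an earlier build, 759 of 5192 exonic bases of Ctnnb1 overlapped Ulk4 on the opposite strand, and 209 of 5506 of Axin2 overlapped the antisense gene Gm11670. The use of strand in counting is not stated. Ulk4 and Gm11670 had at most 0.400 and 1.61 CPM in any library.

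**Figure D2:**
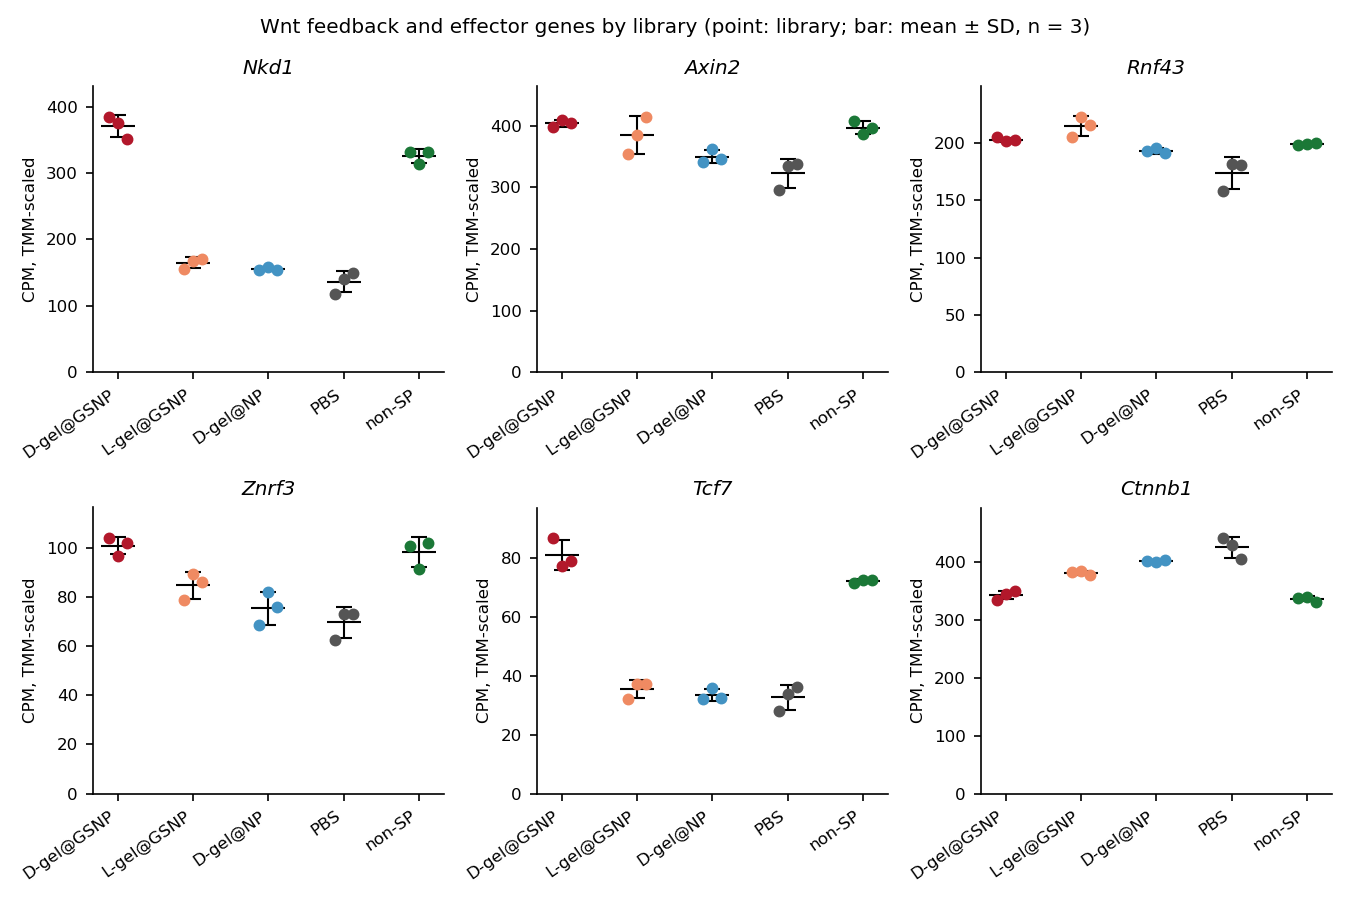
CPM with TMM scaling (vertical axis, from 0) of the 6 tested genes in each of the 15 libraries, by group; points are libraries, and bars are the mean and SD of 3. Nkd1 and Tcf7 form an upper set (D-gel@GSNP and non-SP) and a lower set (L-gel@GSNP, D-gel@NP and PBS), Axin2, Rnf43 and Znrf3 vary less, and Ctnnb1 is highest in PBS.

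The order of these genes by level per length differed between groups. In D-gel@GSNP the means were 78.9 FPKM for Nkd1, 71.1 FPKM for Axin2, 64.1 FPKM for Ctnnb1, 30.1 FPKM for Rnf43, 26.0 FPKM for Tcf7 and 12.4 FPKM for Znrf3. In PBS they were 82.4 FPKM for Ctnnb1, 59.1 FPKM for Axin2, 30.0 FPKM for Nkd1, 26.7 FPKM for Rnf43, 10.9 FPKM for Tcf7 and 8.89 FPKM for Znrf3. Nkd1 was thus first in D-gel@GSNP and below Axin2 and Ctnnb1 in PBS. Averaged over all libraries, 94.1% of tested genes had a lower FPKM than Nkd1, 95.9% than Axin2, 96.3% than Ctnnb1, 89.2% than Rnf43, 80.6% than Tcf7 and 72.6% than Znrf3.

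D-gel@GSNP was set against PBS, both of them sorted cells under the cytokine cocktail. All 4 feedback inhibitors and Tcf7 rose, and Ctnnb1 fell. That is 5 of 6 tested genes higher and 1 lower, where 27.4% of all genes were called higher and 27.5% lower. Of the calls over all genes 49.9% were higher, and 42.2% with upper-quartile factors, which moved the median of all genes by -0.0786. Nkd1 rose 2.73-fold (log2 difference 1.45 ± 0.064 SE, 95% interval 1.31 to 1.58, adjusted p = 3.71e-14) and Tcf7 rose 2.48-fold (1.31 ± 0.080 SE, interval 1.14 to 1.48, adjusted p = 5.55e-12). Znrf3 rose 1.45-fold (log2 difference 0.53, adjusted p = 1.09e-06), Axin2 1.25-fold (0.32, adjusted p = 3.92e-05) and Rnf43 1.17-fold (0.23, adjusted p = 0.000685; 0.15, adjusted p = 0.0162, with upper-quartile factors). Ctnnb1 fell by 0.31 on the log2 scale (adjusted p = 1.51e-06). For none of the 6 did the libraries of D-gel@GSNP and PBS overlap, and 61.0% of all genes had no overlap. Against the other genes, changes of at least the size of Nkd1's were seen in 8.36%, of Tcf7's in 10.1%, of Znrf3's in 40.0%, of Axin2's in 60.2%, of Ctnnb1's in 61.7% and of Rnf43's in 71.1%. The median log2 difference was 0.43 over the 6 genes and -0.023 over all genes, and the median size was 0.43 and 0.42. The shifts of Axin2, Rnf43 and Ctnnb1 were thus smaller than the median size over all genes, and those of Nkd1, Tcf7 and Znrf3 were larger.

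The L hydrogel with the same load gave a smaller set of changes against PBS. Nkd1, Axin2, Rnf43 and Znrf3 rose and Ctnnb1 fell, so 4 of 6 genes were higher and 1 lower, where 21.5% of all genes were called higher and 24.1% lower. Of those calls over all genes 47.1% were higher, and 57.1% with upper-quartile factors. The log2 differences of the feedback genes lay close together, at 0.28 for Nkd1 (adjusted p = 0.00105), 0.25 for Axin2 (adjusted p = 0.000726), 0.31 for Rnf43 (adjusted p = 3.98e-05) and 0.28 for Znrf3 (adjusted p = 0.00226). Each was smaller than the median size over all genes, 0.32. Changes at least as large were seen in 54.9%, 58.1%, 51.2% and 54.2% of all genes. Tcf7 differed by 0.12 (interval -0.05 to 0.29, adjusted p = 0.235) with overlapping libraries. Ctnnb1 fell by 0.16 (adjusted p = 0.00386), a call that was lost with upper-quartile factors (log2 difference -0.09, adjusted p = 0.0942) and with no filter on low counts (adjusted p = 0.0629).

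In D-gel@NP the fewest of these genes differed from PBS. Nkd1 (log2 difference 0.20, adjusted p = 0.0242) and Rnf43 (0.15, adjusted p = 0.0282) were higher than in PBS, 2 of 6 genes, where 14.2% of all genes were called higher and 16.3% lower, and no gene of the 6 was called lower. Of the calls over all genes 46.5% were higher, and 57.2% with upper-quartile factors. Neither call held without PBS 1, after which Nkd1 differed by 0.11 (adjusted p = 0.138) and Rnf43 by 0.10 (adjusted p = 0.145), nor without D-gel@NP 2 (adjusted p = 0.0605 and 0.0619), nor in a fit of only the 6 libraries compared (adjusted p = 0.0598 and 0.0800). PBS 1 had the lowest level in its group for Nkd1, Axin2, Rnf43, Znrf3 and Tcf7 and the highest for Ctnnb1. Axin2 differed by 0.12 (adjusted p = 0.128), Znrf3 by 0.12 (adjusted p = 0.228), Tcf7 by 0.04 (interval -0.13 to 0.21, adjusted p = 0.766) and Ctnnb1 by -0.08 (adjusted p = 0.141). Axin2 passed with upper-quartile factors (0.16, adjusted p = 0.0340), and Ctnnb1 passed without PBS 3 (-0.12, adjusted p = 0.0440).

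**Figure D3:**
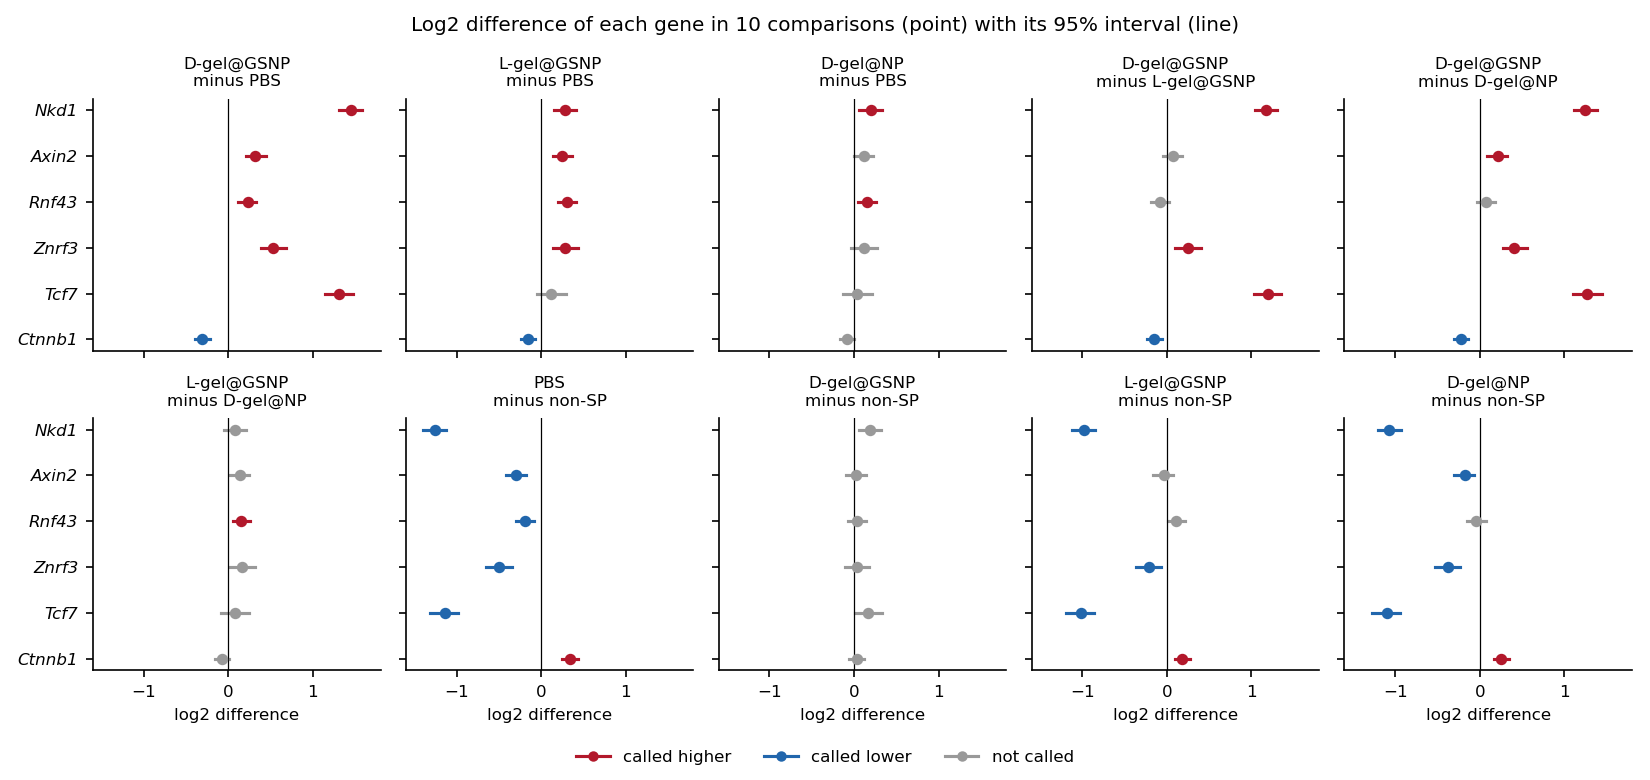
Log2 difference (horizontal axis) of each tested gene in the 10 comparisons, with 95% intervals; colour marks genes called higher, called lower or not called at an adjusted p under 0.05. Nkd1 and Tcf7 lie beyond 1 in D-gel@GSNP minus PBS, minus L-gel@GSNP and minus D-gel@NP. In D-gel@GSNP minus non-SP they lie at 0.19 and 0.17, with intervals above 0, and neither is called.

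The hydrogels marked D and L with the same GSNP load were compared at the same day. Nkd1 was 2.25-fold higher in D-gel@GSNP than in L-gel@GSNP (log2 difference 1.17 ± 0.064 SE, interval 1.04 to 1.30, adjusted p = 4.82e-13) and Tcf7 2.28-fold higher (1.19 ± 0.079 SE, interval 1.03 to 1.35, adjusted p = 1.19e-11). Znrf3 was higher by 0.25 (adjusted p = 0.00364), a call lost with upper-quartile factors (0.11, adjusted p = 0.190), and Ctnnb1 was lower by a log2 difference of -0.15 (adjusted p = 0.00324; -0.30 with upper-quartile factors). So 3 of 6 genes were higher and 1 lower, where 30.5% of all genes were called higher and 31.3% lower. Changes of at least the size of Nkd1's were seen in 17.5% of all genes, of Tcf7's in 17.2%, of Znrf3's in 72.8% and of Ctnnb1's in 83.5%. Axin2 and Rnf43 did not differ past the threshold: their intervals were -0.05 to 0.18 and -0.19 to 0.03. Axin2 was 0.07 higher with TMM factors and -0.08 with upper-quartile factors, and Rnf43, at -0.08 with TMM factors, passed the threshold with upper-quartile factors (-0.22, adjusted p = 0.000500) and with a filter of at least 1 CPM (-0.12, adjusted p = 0.0342). Upper-quartile factors moved the median of all genes by -0.1451 here, and 38.1% of calls were then higher, against 49.4% with TMM.

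The loads GSNP and NP in the D hydrogel gave a similar picture. Nkd1 was 2.38-fold higher in D-gel@GSNP than in D-gel@NP (log2 difference 1.25 ± 0.064 SE, adjusted p = 2.48e-13) and Tcf7 2.41-fold higher (1.27 ± 0.081 SE, adjusted p = 8.56e-12). Znrf3 was higher by 0.41 (adjusted p = 3.03e-05) and Axin2 by 0.21 (adjusted p = 0.00328), and Ctnnb1 was lower, with a log2 difference of -0.22 (adjusted p = 8.02e-05). These are 4 of 6 genes higher and 1 lower, where 28.8% of all genes were called higher and 29.6% lower. The call of Axin2 was lost with upper-quartile factors (0.08, adjusted p = 0.198), under which the median of all genes moved by -0.1207, Ctnnb1 stood at -0.34 and 38.6% of calls were higher, against 49.3%. Rnf43 differed by 0.07 (interval -0.03 to 0.18, adjusted p = 0.231) and by -0.05 with upper-quartile factors. L-gel@GSNP and D-gel@NP differed from each other in 1 of 6 genes, Rnf43, higher in L-gel@GSNP by 0.15 (adjusted p = 0.0399), where 8.33% of all genes were called higher and 11.1% lower. That call was lost in 5 of 6 fits that left out a library, with adjusted p from 0.0652 to 0.160, the exception being the fit without L-gel@GSNP 1. For Nkd1 the interval of this difference was -0.05 to 0.21 and for Tcf7 -0.09 to 0.25, and Axin2 (0.14, adjusted p = 0.0912), Znrf3 (0.16, adjusted p = 0.12) and Ctnnb1 (-0.07, adjusted p = 0.257) did not pass either. These comparisons share the D-gel@GSNP or the PBS libraries and are not independent of each other.

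D-gel@GSNP was also compared with untreated non-SP cells, which differ from it in the sort, the cocktail and the hydrogel. None of the 6 genes passed the threshold in edgeR, and 2 (Nkd1 and Tcf7) had an unadjusted p under 0.05; DESeq2 called none either. Over all genes 0.103% were called higher and 0.314% lower. Nkd1 differed by 0.19 (interval 0.06 to 0.32, adjusted p = 0.300) and Tcf7 by 0.17 (interval 0.01 to 0.33, adjusted p = 0.528), each with no overlap between the libraries of the groups, as was also the case for Rnf43 and for 20.4% of all genes. In a fit of only these 6 libraries, Nkd1 passed (0.16, adjusted p = 0.0309). The intervals of Axin2 (-0.09 to 0.14), Rnf43 (-0.07 to 0.14), Znrf3 (-0.11 to 0.18) and Ctnnb1 (-0.06 to 0.12) bound their differences. They do not show that the levels were the same.

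PBS differed from non-SP in all 6 genes. Nkd1 was lower in PBS by a log2 difference of -1.26 (adjusted p = 3.31e-13) and Tcf7 by -1.14 (adjusted p = 6.02e-11), and Znrf3 (-0.50), Axin2 (-0.30) and Rnf43 (-0.19) were lower too, with adjusted p of 3.36e-06, 0.000101 and 0.00285. Ctnnb1 was higher by 0.34 (adjusted p = 4.29e-07). These were 5 of 6 lower and 1 higher, where 26.1% of all genes were called lower and 27.6% higher. L-gel@GSNP was lower than non-SP in 3 of 6 genes, Nkd1 (-0.98, adjusted p = 9.49e-12), Tcf7 (-1.02, adjusted p = 1.71e-10) and Znrf3 (-0.21, adjusted p = 0.0121), and higher in 1, Ctnnb1 (0.18, adjusted p = 0.000659), where 29.2% of all genes were called lower and 30.6% higher. Axin2 differed by -0.04 (adjusted p = 0.519; 0.08 with upper-quartile factors) and Rnf43 by 0.11 (adjusted p = 0.0660; 0.23 with upper-quartile factors). The call of Znrf3 was lost without L-gel@GSNP 1 (-0.15, adjusted p = 0.0916), without non-SP 3 (-0.19, adjusted p = 0.0543) and with upper-quartile factors (-0.09, adjusted p = 0.250), which moved the median of all genes by 0.1196 and put Ctnnb1 at 0.30. D-gel@NP was lower in 4 of 6, Nkd1 (-1.07), Tcf7 (-1.10), Znrf3 (-0.38) and Axin2 (-0.18), with adjusted p of 3.86e-12, 1.05e-10, 0.000101 and 0.00835, and higher in Ctnnb1 (0.25, adjusted p = 1.83e-05), where 27.0% of all genes were called lower and 29.1% higher. The call of Axin2 there was lost with upper-quartile factors (-0.09, adjusted p = 0.191), and Rnf43 differed by -0.04 (adjusted p = 0.520; 0.05 with upper-quartile factors).

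Ratios of the counts of 2 genes within a library do not depend on how libraries are scaled. Nkd1 had 0.968, 0.918 and 0.870 counts per count of Axin2 in D-gel@GSNP, 0.440, 0.435 and 0.410 in L-gel@GSNP, 0.451, 0.438 and 0.445 in D-gel@NP, 0.400, 0.421 and 0.439 in PBS and 0.814, 0.811 and 0.837 in non-SP. D-gel@GSNP lay above non-SP without overlap, and the other 3 groups overlapped. Nkd1 and Axin2 therefore changed unequally between D-gel@GSNP and PBS. No test was run on the ratios. Znrf3 per Rnf43 was 0.506, 0.480 and 0.503 in D-gel@GSNP, 0.383, 0.401 and 0.399 in L-gel@GSNP, 0.355, 0.418 and 0.399 in D-gel@NP, 0.396, 0.402 and 0.404 in PBS and 0.512, 0.461 and 0.511 in non-SP. This pair of related ligases was thus also divided into the same 2 sets of groups. Axin2 per Ctnnb1 was instead graded, with a mean of 1.18 ± 0.0160 for D-gel@GSNP, a mean of 1.01 ± 0.0853 for L-gel@GSNP, a mean of 0.873 ± 0.0312 for D-gel@NP, a mean of 0.763 ± 0.0834 for PBS and a mean of 1.18 ± 0.0341 for non-SP (SD, n = 3). Tcf7 per Ctnnb1 was 0.259, 0.225 and 0.226 in D-gel@GSNP, compared with 0.0636, 0.0787 and 0.0895 in PBS.

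**Figure D4:**
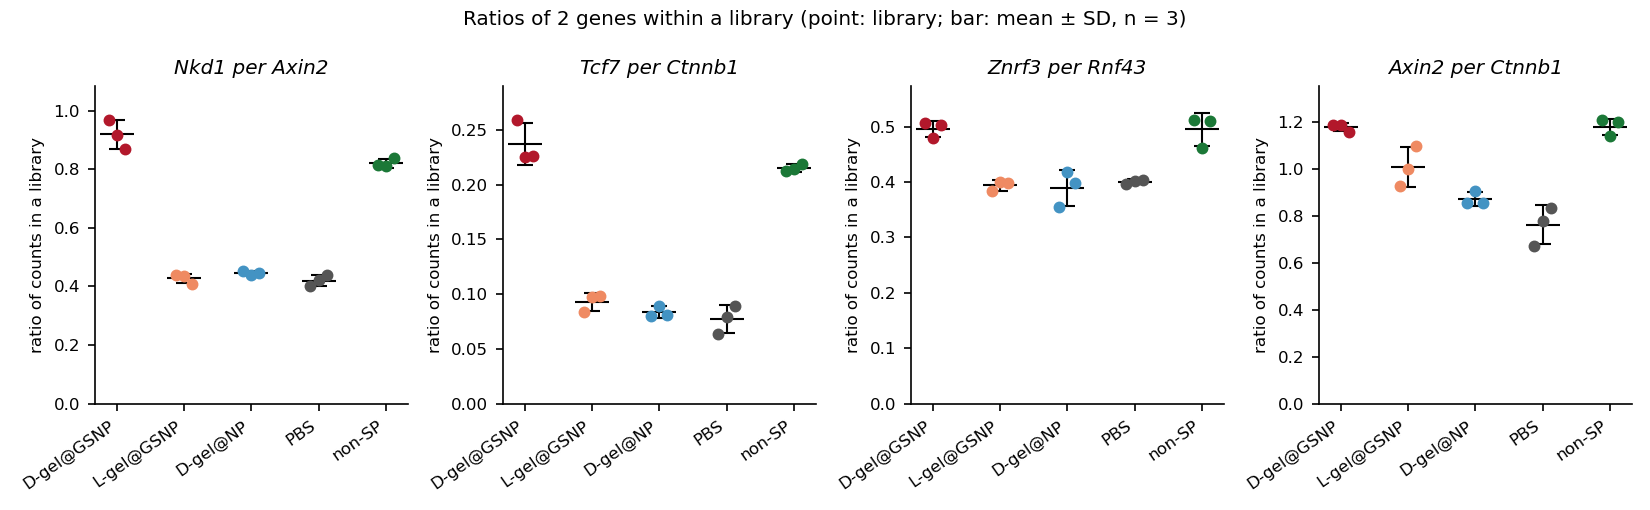
Ratio of the counts of 2 genes within each library (vertical axis, from 0), by group; points are libraries, and bars are the mean and SD of 3. Nkd1 per Axin2, Tcf7 per Ctnnb1 and Znrf3 per Rnf43 are high in D-gel@GSNP and non-SP, and Axin2 per Ctnnb1 is lowest in PBS, with L-gel@GSNP and D-gel@NP in between.

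Other genes of the pathway were counted by role, from lists chosen with earlier results of these data known. In D-gel@GSNP minus PBS their median log2 differences were 0.69 for ligands, 0.26 for receptors, 0.13 for antagonists, 0.26 for the destruction complex, 0.42 for nuclear partners, 0.11 for other targets and 0.24 for junction partners, beside -0.023 over all genes, and their counts stand beside 27.4% of all genes called higher and 27.5% lower. In L-gel@GSNP minus PBS these shares were 21.5% and 24.1%, and in D-gel@NP minus PBS 14.2% and 16.3%, so counts of calls drop in that order over all genes too. Of 25 ligands, R-spondins and ligand export genes, 8 were tested, and 4 rose in D-gel@GSNP relative to PBS with no fall. The tested genes besides Wnt5a and Wnt6 were Wnt2b, Wnt7b, Wnt10a, Wnt10b, Porcn and Wls. Their group means were at most 4.05 CPM, so the median of 0.69 rests mostly on genes at low levels. Wnt5a, a ligand of mostly non-canonical signalling, was at 131 ± 6.59 CPM in D-gel@GSNP and 81.8 ± 10.4 CPM in PBS (SD, n = 3; log2 difference 0.68, adjusted p = 1.11e-07). Wnt5a was also higher than in PBS in L-gel@GSNP (0.68, adjusted p = 1.95e-07) and D-gel@NP (0.64, adjusted p = 1.84e-06). Between D-gel@GSNP and L-gel@GSNP, Wnt5a did not differ past the threshold (-0.01, adjusted p = 0.937). Wnt6 was at 132 ± 0.468 CPM in D-gel@GSNP and 64.3 ± 19.7 CPM in PBS (1.04, adjusted p = 1.48e-07). Wnt6 was also higher in L-gel@GSNP (1.11, adjusted p = 1.15e-07) and D-gel@NP (0.83, adjusted p = 2.17e-05) than in PBS, and did not differ past the threshold between D-gel@GSNP and L-gel@GSNP (-0.07, adjusted p = 0.612). Wnt5a and Wnt6 were thus not arranged by group like Nkd1 and Tcf7. Rspo2, Rspo3 and Rspo4, R-spondins that hold back Rnf43 and Znrf3, were too low to test. The R-spondin receptors were chosen here after their values were seen. Lgr5 was at 262 ± 3.18 CPM in D-gel@GSNP, 257 ± 20.0 CPM in L-gel@GSNP and 221 ± 19.1 CPM in PBS (SD, n = 3), Lgr4 at 38.7 ± 0.844 CPM in D-gel@GSNP, 32.6 ± 1.41 CPM in L-gel@GSNP and 40.7 ± 1.37 CPM in PBS, and Lgr6 at 0.881 ± 0.0885 CPM in D-gel@GSNP, 5.94 ± 0.716 CPM in L-gel@GSNP and 2.42 ± 0.727 CPM in PBS. The 3 receptors were thus not arranged alike.

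Of 22 receptors and proximal partners, 19 were tested, and 11 rose and 2 fell in D-gel@GSNP relative to PBS. Lrp5, a Wnt co-receptor, was at 178 ± 5.24 CPM in D-gel@GSNP, 107 ± 11.4 CPM in L-gel@GSNP, 110 ± 4.85 CPM in D-gel@NP, 114 ± 8.10 CPM in PBS and 167 ± 1.31 CPM in non-SP (SD, n = 3), with a log2 difference of 0.65 from PBS (adjusted p = 1.35e-08) and 0.73 from L-gel@GSNP (adjusted p = 1.19e-09). Its means fell into the same upper and lower set of groups as those of Tcf7. Fzd1, a Frizzled receptor, was graded instead, at 97.4 ± 1.90 CPM in D-gel@GSNP, 85.0 ± 7.34 CPM in L-gel@GSNP, 75.6 ± 3.82 CPM in D-gel@NP, 60.6 ± 6.39 CPM in PBS and 88.6 ± 2.40 CPM in non-SP. Dvl3, a Dishevelled protein, rose by 0.60 (adjusted p = 3.06e-06) and Ror1, a Wnt5a receptor, by 1.55 (adjusted p = 7.33e-08), while Dvl1 (-0.02, adjusted p = 0.862) and Fzd6 (-0.06, adjusted p = 0.488) did not pass. Ror1 was also higher than in PBS in L-gel@GSNP (1.39, adjusted p = 7.35e-07) and D-gel@NP (0.84, adjusted p = 0.00113), and Dvl3 was called in neither. Of 19 secreted antagonists and other feedback genes, 7 were tested and 3 rose in D-gel@GSNP relative to PBS. Among the tested genes, Dkk3, Apcdd1, Dact1 and Dact3 had group means of at most 1.35 CPM. Notum, a secreted enzyme that inactivates Wnt ligands and is itself a Wnt target, was at 43.2 ± 0.853 CPM in D-gel@GSNP, 33.8 ± 4.15 CPM in L-gel@GSNP, 25.5 ± 1.65 CPM in D-gel@NP, 21.5 ± 1.44 CPM in PBS and 42.7 ± 1.35 CPM in non-SP (1.00 against PBS, adjusted p = 5.31e-10; 0.36 against L-gel@GSNP, adjusted p = 0.000415). Dkk2, a secreted antagonist, rose by 0.46 (adjusted p = 0.0215), but by 1.16 in L-gel@GSNP relative to PBS (adjusted p = 3.09e-06), so that it was lower in D-gel@GSNP than in L-gel@GSNP (-0.71, adjusted p = 0.000386), and Kremen1 differed by -0.09 (adjusted p = 0.577).

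All 15 genes of the destruction complex and of beta-catenin turnover were tested, and 11 rose and 2 fell in D-gel@GSNP relative to PBS, 8 and 2 in L-gel@GSNP and 5 and 1 in D-gel@NP. The share of all genes called higher also dropped over these comparisons (27.4%, 21.5% and 14.2%). Axin1, the scaffold that Axin2 resembles, was at 99.2 ± 4.75 CPM in D-gel@GSNP, 58.4 ± 3.55 CPM in L-gel@GSNP, 61.3 ± 6.08 CPM in D-gel@NP, 61.0 ± 4.93 CPM in PBS and 92.3 ± 6.78 CPM in non-SP. It rose by 0.70 against PBS (adjusted p = 3.49e-08) and 0.76 against L-gel@GSNP (adjusted p = 5.88e-09), larger log2 differences than those of Axin2. Gsk3a, a kinase of the complex, rose by 0.45 (adjusted p = 2.21e-06), Csnk1a1, the priming kinase, by 0.53 (adjusted p = 1.9e-10) and Usp7, a deubiquitinase, by 0.70 (adjusted p = 5.98e-11). Siah1a, a ubiquitin ligase, rose by 0.17 (adjusted p = 0.0466), and Fbxw11 differed by 0.10 (adjusted p = 0.172). Apc, a scaffold of the complex chosen here after its values were seen, fell by 0.29 (adjusted p = 2.86e-05). Csnk1a1 was also higher than in PBS in L-gel@GSNP (0.40, adjusted p = 3.44e-08) and D-gel@NP (0.31, adjusted p = 4.31e-06). Gsk3a was called lower than in PBS in L-gel@GSNP (-0.29, adjusted p = 0.000591) and was not called in D-gel@NP (-0.17, adjusted p = 0.0502). Usp7 was called lower in D-gel@NP (-0.14, adjusted p = 0.0376) and was not called in L-gel@GSNP (-0.11, adjusted p = 0.0785).

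Of 16 nuclear partners of beta-catenin, 14 were tested, and 10 rose and 1 fell in D-gel@GSNP relative to PBS, 5 and no fall in L-gel@GSNP and 4 and 1 in D-gel@NP, beside the same shares of all genes. The co-activator Bcl9l rose by 0.68 (adjusted p = 2.31e-07), the co-repressor Tle3 by 0.93 (adjusted p = 8.11e-10) and the deacetylase Hdac1 by 0.41 (adjusted p = 4.95e-07). Tle4, another co-repressor of the same family, fell by 0.60 (adjusted p = 3.59e-07), at 98.3 ± 3.91 CPM in D-gel@GSNP and 149 ± 13.3 CPM in PBS (SD, n = 3). Co-activators and co-repressors were therefore both among the genes that rose, and the Tle family was divided. Tle1 (0.09, adjusted p = 0.396) and Pygo1 (-0.12, adjusted p = 0.611) did not pass. Tle3 was also higher than in PBS in L-gel@GSNP (0.58, adjusted p = 2e-06) and D-gel@NP (0.49, adjusted p = 6.32e-05). Bcl9l was called in neither. Hdac1 was called lower than in PBS in D-gel@NP (-0.16, adjusted p = 0.0281) and was not called in L-gel@GSNP (-0.08, adjusted p = 0.206).

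Of 29 other known Wnt targets, 20 were tested, and 9 rose and 6 fell in D-gel@GSNP relative to PBS. Sp5, a transcription factor that is a direct target in many tissues, was at 130 ± 2.33 CPM in D-gel@GSNP, 89.6 ± 3.46 CPM in L-gel@GSNP, 83.8 ± 3.38 CPM in D-gel@NP, 81.5 ± 4.68 CPM in PBS and 110 ± 8.59 CPM in non-SP (SD, n = 3), with 0.68 against PBS (adjusted p = 1.65e-09) and 0.54 against L-gel@GSNP (adjusted p = 3.47e-08). Nrcam, an adhesion molecule, rose by 0.96 (adjusted p = 2.22e-11) and Birc5, which encodes survivin, by 0.77 (adjusted p = 1.98e-09). Cd44, an adhesion receptor, fell by 1.10 (adjusted p = 8.4e-15), at 539 ± 6.97 CPM in D-gel@GSNP and 1156 ± 48.0 CPM in PBS. Fosl1 (0.07, adjusted p = 0.743) and Tcf4 (-0.06, adjusted p = 0.348) did not pass. In L-gel@GSNP relative to PBS, 7 of these targets rose and 9 fell (21.5% and 24.1% of all genes), and in D-gel@NP 5 rose and 5 fell (14.2% and 16.3% of all genes).

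Beta-catenin also links cadherins to the cytoskeleton. Of 9 junction partners, all tested, 5 rose and 2 fell in D-gel@GSNP relative to PBS. Cdh2, which encodes N-cadherin, rose by 0.55 (adjusted p = 3.92e-05) and Jup, which encodes plakoglobin and is a relative of beta-catenin, by 0.28 (adjusted p = 0.00563), while Ctnnal1, a relative of alpha-catenin, fell by 0.30 (adjusted p = 0.00130). Pkp2 rose by 0.35 (adjusted p = 0.00702) and Ctnnd1 by 0.16 (adjusted p = 0.0384). Ctnna1, alpha-catenin, differed by -0.09 (adjusted p = 0.0631).

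**Figure D5:**
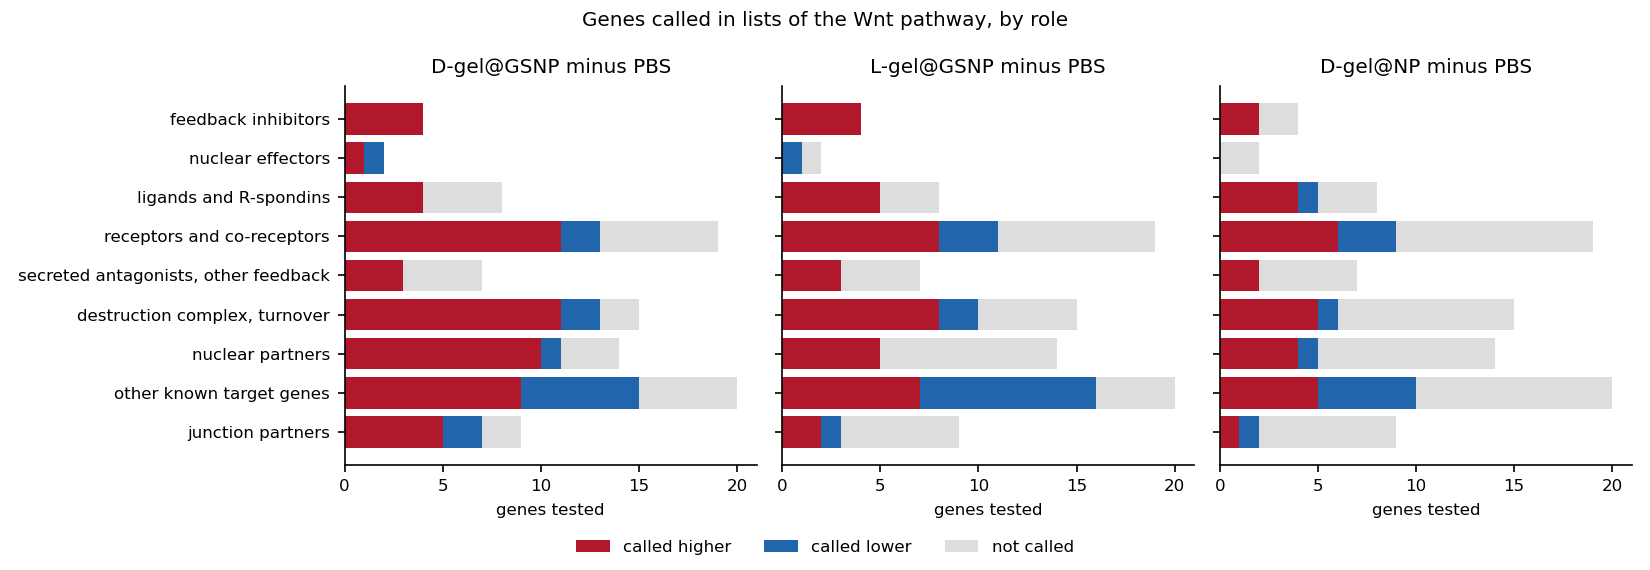
Number of tested genes (horizontal axis) called higher, called lower or not called in each list of Wnt pathway genes, for the 3 hydrogel groups minus PBS. In the destruction complex list 11 of 15 genes rose in D-gel@GSNP, 8 genes in L-gel@GSNP and 5 genes in D-gel@NP, where 27.4%, 21.5% and 14.2% of all genes were called higher.

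Among all tested genes with at least 5 CPM, those whose log2 CPM followed Nkd1 most closely over the 15 libraries were Sfpq (Pearson r = 0.997), Drosha (0.996) and Smarcd1 (0.995). For Tcf7 they were Zbed3 (0.997), Khsrp (0.996) and Prpf8 (0.995). These are descriptions over libraries that fall into an upper and a lower set, share their scaling and were taken as the closest of all tested genes. Drosha was at 272 ± 6.01 CPM in D-gel@GSNP, 121 ± 4.79 CPM in L-gel@GSNP, 122 ± 3.96 CPM in D-gel@NP, 110 ± 10.6 CPM in PBS and 250 ± 3.35 CPM in non-SP. Zbed3 was at 60.1 ± 2.35 CPM in D-gel@GSNP, 24.9 ± 2.47 CPM in L-gel@GSNP, 25 ± 1.97 CPM in D-gel@NP, 22.5 ± 2.66 CPM in PBS and 55.1 ± 1.47 CPM in non-SP (SD, n = 3). Both fell into the upper and lower set of groups seen for Nkd1, with PBS at the lowest mean.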

How the data were processed

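The authors deposited whole-number counts of reads for each gene. Per the submitters' processing notes, fastp 0.22.0, HISAT2 2.1.0, featureCounts, DESeq2 and GRCm39 were used. Whether counting used strand or multi-mapped reads is not given in the sources used here. The deposited FPKM values equal, for all 34259 genes, count divided by gene length and library total within a relative tolerance of 0.0001. Low counts (1 to 20) were even in 62.32% to 66.44% of cases, depending on the library, so single counts may not be independent reads, and limits from counts cover counting error only. Symbols came from GENCODE by gene identifier (32434 of 34259 matched).

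Testing was done with edgeR 4.0.16 under R 4.3.3. After filterByExpr (17497 genes) and TMM scaling, group means of all 15 libraries were fitted together by quasi-likelihood, and a call is a Benjamini-Hochberg adjusted p under 0.05 across the tested genes. The pipeline was tested on simulated counts in which few genes changed, in both directions and in a single group. That setting does not probe scaling where many genes change, as they did here. Alternatives were upper-quartile or RLE factors, all genes without a filter, a filter of 1 CPM in at least 3 libraries, DESeq2 (version 1.42.0), fits restricted to the libraries of a comparison, a replicate block, and leaving out each library.

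The 7 genes, the pathway lists and the rules for naming genes were chosen with earlier results of these data known. Each role list names up to 4 genes with at least 5 CPM and the lowest adjusted p in D-gel@GSNP minus PBS and up to 2 with the highest. Some listed genes are not analysed here. Promoters are from RefSeq (GRCm38.p6).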

Additional observations from a re-analysis of the deposited data

How the results depend on the processing

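Each log2 difference was recomputed under 13 alternatives. Nkd1 and Tcf7 kept their calls under all 13 in D-gel@GSNP minus PBS (1.36 to 1.52 for Nkd1 and 1.21 to 1.39 for Tcf7), minus L-gel@GSNP (1.02 to 1.21 and 1.05 to 1.22) and minus D-gel@NP (1.13 to 1.29 and 1.15 to 1.31), and Axin2, Rnf43, Znrf3 and Ctnnb1 kept theirs in D-gel@GSNP minus PBS, with the largest adjusted p at 0.0162. Of 780 recomputed differences, 736 kept direction and call, 13 gained a call, 20 lost one and 11 changed sign, none of the 11 called beforehand. The changes of sign with upper-quartile factors were Axin2 in D-gel@GSNP minus L-gel@GSNP (-0.08), minus non-SP (-0.0024) and L-gel@GSNP minus non-SP (0.08), and Rnf43 in D-gel@GSNP minus D-gel@NP (-0.05) and D-gel@NP minus non-SP (0.05). With only the libraries compared, Axin2 in D-gel@GSNP minus non-SP gave -0.0041. With a library left out, Tcf7 in D-gel@NP minus PBS ranged from -0.05 to 0.12 (-0.0027 without D-gel@NP 2), Axin2 in D-gel@GSNP minus L-gel@GSNP from -1.8e-05 to 0.11 and in L-gel@GSNP minus non-SP from -0.09 to 0.02, and Znrf3 in D-gel@GSNP minus non-SP from -0.01 to 0.07. The cause was not tested.

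Of the 6 genes, 2 were called in D-gel@NP minus PBS, 0 in a fit of only the libraries compared, and 0 to 3 with a library left out. In L-gel@GSNP minus D-gel@NP 1 was called, 2 with upper-quartile factors, 3 with no filter, 0 with only the libraries compared, and 0 to 2 with a library left out. In D-gel@GSNP minus non-SP 0 were called, and 1 with only the libraries compared. Over all genes, 73 were called in D-gel@GSNP minus non-SP, 239 with no filter, 282 with only the libraries compared, 194 with DESeq2, and 6 to 140 with a library left out; the other counts stayed within 1.5 times. In L-gel@GSNP minus non-SP, 61.2% of the calls were higher with upper-quartile factors, against 51.2%. In PBS minus non-SP the share was 57.1%, against 51.4%, and in D-gel@NP minus non-SP 60.9%, against 51.9%. Libraries with the same replicate number did not deviate together (correlations from -0.036 to 0.045, and 3 of 15 libraries correlated best with their own number). No shared effect of the number was thus seen, but whether same-numbered libraries were handled together is not known. A replicate block changed no call of the 6 genes and gave 34 calls in D-gel@GSNP minus non-SP. Depth limits Lef1.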
